A study of Mus musculus with 6 samples.

Results

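The tumour suppressor p53, encoded in the mouse by Trp53, induces a set of genes that act in cell death, and 10 of them were examined here in embryonic fibroblasts that carry an altered SOD2. The members were the 10 rows of the count table whose gene name equalled a name on the list: the BH3-only genes Pmaip1 and Bbc3, the pore-forming effector Bax, the membrane protein gene Perp, the receptors Fas, Tnfrsf10b and Eda2r, and Aen, Phlda3 and Trp53inp1. All 10 were found among the 50763 genes of the table, and all 10 passed the filter on low counts. Messenger RNA had been sequenced from cultured mouse embryonic fibroblasts (MEFs), the connective tissue cells that attach and divide when an embryo is dissociated into a dish, here at stage E13.5. One genotype was wild type (WT, SOD2WT) and the other carried SOD2K68R (K68R), a germline substitution made with CRISPR that puts arginine in place of a lysine of the manganese superoxide dismutase and mimics its non-acetylated form. Both were on a C57BL/6 background with the strain given as C57BL/6J, and each had 3 libraries labelled as biological replicates. No agent was applied, whether the K68R embryos were homozygous is not given in the labels, and neither is whether the libraries of a genotype came from separate embryos, so p-values measure only the spread between these libraries, which may be technical.

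As background, p53 is held low by the ubiquitin ligase MDM2 and accumulates after DNA damage or other stress, when it binds DNA as a tetramer and raises transcription of its targets. The death targets work along a mitochondrial route, in which BH3-only proteins neutralise protective BCL2 relatives so that BAX and BAK can open the outer mitochondrial membrane, and along a receptor route, in which ligands of the tumour necrosis factor family assemble caspase-8 at the cell surface. Primary fibroblasts carry p53 that responds to culture stress, and p53 in them is known mainly for arrest and senescence, with death after stronger damage. Several of these genes also answer to other factors, such as the stress factors ATF4 and CHOP.

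The libraries held 26200088 to 40691447 counted read pairs, where 3 counts, the level taken as the floor of detection, equal 0.0728 to 0.116 CPM (counts scaled to a common TMM-normalised library total). Sod2, which the knock-in alters, was at 45.6 to 48.9 CPM in K68R against 68.9 to 71.8 CPM in WT (log2 -0.57, and -0.22 with the offsets described next), and its counts do not distinguish the changed codon. Of 16730 genes tested, 6833 were called higher and 6780 lower at an adjusted p under 0.05 (edgeR quasi-likelihood test, Benjamini-Hochberg). That is 81.4% of all genes, so a call alone sets no gene apart, and the size of each change is given. Fold changes also moved with exon length and GC content: a fitted surface over both accounted for 40% of the variance of log2 fold changes across genes, which are not independent replicates. Each member is therefore also given with offsets that remove this surface in every library, under which 5382 genes were called higher and 6452 lower. With offsets for exon length alone the split was 5307 higher and 8153 lower. The marker lists moved too. Of 13 tested skeletal muscle markers 13 were higher and none lower, with a summed level of 308 to 311 CPM in K68R and 95.3 to 99.3 CPM in WT. Of 10 tested epithelial markers 2 were higher and 7 lower (44.1 to 47.7 against 58.5 to 59.8 CPM). Of 12 fibroblast markers, all well above the floor in every library, 6 were higher and 5 lower (12147 to 12255 against 8420 to 8519 CPM), and 5 higher and 7 lower with offsets, for a median of -0.71 (log2). Among them Col1a1 and Col1a2 were 14.8-fold and 3.94-fold higher, and Pdgfra and Thy1 5.56-fold and 3.06-fold lower, without offsets. With length and GC offsets Col1a1 and Col1a2 were at 1.41 and 0.54 (log2), and Pdgfra and Thy1 at -2.94 and -1.55. Of 11 tested macrophage markers 4 were higher and 3 lower (167 to 172 against 176 to 178 CPM). Of 9 tested neural markers 6 were higher and 3 lower (415 to 422 against 56.3 to 60.1 CPM), and Nes alone made up 334 CPM in K68R and 8.87 CPM in WT. Of 8 tested endothelial markers 4 were higher, 1 lower and 3 not called (101 to 104 against 32.6 to 35.7 CPM), Kdr alone made up 90.7 and 20.4 CPM, and the list median went from 0.47 to -0.20 (log2) with offsets. The part of these cell types in the results was not tested.

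Sequence upstream of the members' transcription starts is shown for 3 genes whose changes differed: Bbc3, which was higher in K68R before the offsets, Bax, which was lower with and without them, and Aen, which changed little. RefSeq start windows of build GRCm38.p6 (300 bases each, from 250 before to 50 after a start) matched 6 members by symbol, Bbc3, Bax, Fas, Aen, Phlda3 and Eda2r, with 9 windows. The consensus decamer of the p53 response element, which is a half-site, was searched on both strands, and only exact matches were counted. It was found in 3 of the 9 windows, which belong to Bax and Aen, and the 2 Aen windows hold the same copy. Of all 32851 windows, 8.36% hold it. Capitals mark the decamer. The Bbc3 stretch is chr7:16309333-16309582, plus strand, and the Bax stretch is chr7:45466899-45467148, minus strand. Each holds the 250 bases before a start. The Aen stretch is chr7:78895927-78895956, plus strand, 30 bases around the match.
Bbc3: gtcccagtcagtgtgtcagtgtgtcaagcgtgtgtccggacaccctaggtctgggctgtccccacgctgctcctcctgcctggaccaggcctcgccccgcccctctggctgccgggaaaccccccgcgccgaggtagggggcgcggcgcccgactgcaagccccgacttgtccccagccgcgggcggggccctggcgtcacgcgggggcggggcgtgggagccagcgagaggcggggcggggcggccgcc
Bax: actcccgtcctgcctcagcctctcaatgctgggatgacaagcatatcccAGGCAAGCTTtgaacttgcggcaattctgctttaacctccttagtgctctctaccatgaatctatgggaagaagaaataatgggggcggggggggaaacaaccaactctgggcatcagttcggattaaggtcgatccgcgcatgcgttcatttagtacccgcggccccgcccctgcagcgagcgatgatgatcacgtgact
Aen: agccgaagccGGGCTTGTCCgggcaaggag
The Bax decamer begins 201 bases before the start. The Aen decamer begins at base 11 of the transcript from the first of its starts and 121 bases before the other. A match describes these letters only. Decamers with a mismatch were not searched, so a stretch without capitals, such as that of Bbc3, is not shown to lack a p53 site.

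Of the 10 members, 8 were called higher, 1 (Bax) lower, and Phlda3 was not called (edgeR, Benjamini-Hochberg), where 40.8% of all tested genes were called higher and 40.5% lower. The median log2 fold change of K68R over WT was 0.41 over the members and -0.01 over all tested genes. The values of the genotypes did not overlap in 9 members, against 82.3% of all genes. Against a bound of 1.5-fold, 4 members were called, Pmaip1, Perp, Tnfrsf10b and Bbc3, all higher, beside 26.1% of all genes called higher and 14.9% lower (41% in either direction). With length and GC offsets 6 members were called higher and 4 lower, beside 34.4% and 41.2% of all genes (75.6% in either direction), and the member median was 0.50, against -0.05 over all genes. Pmaip1, Perp, Tnfrsf10b, Trp53inp1, Fas and Eda2r stayed higher, Bax stayed lower, Bbc3 and Aen changed sign, and Phlda3 became lower.

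**Figure D1:**
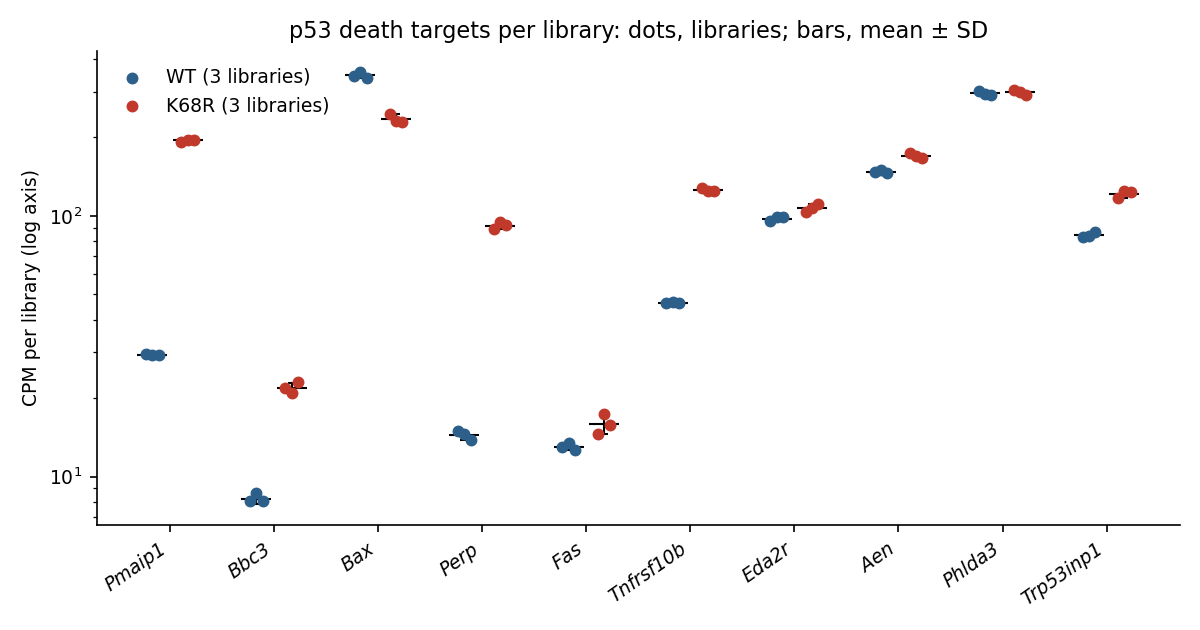
CPM of the 10 members in each library on a log axis, with WT in blue and K68R in red; dots are libraries and bars are mean ± SD of 3 libraries. Pmaip1 (191.8 to 196.4 against 29.3 to 29.4 CPM) and Perp stand farthest apart, Bax is the member that is lower in K68R, and the Phlda3 values overlap.

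The BH3-only genes are Pmaip1 and Bbc3. Pmaip1 encodes NOXA, a BH3-only protein that binds and disables MCL1, and lies on chromosome 18 at 66591675 to 66598629, plus strand (build mm39, as are all gene positions that follow). In K68R it stood at 191.8, 196.4 and 196.3 CPM, against 29.4, 29.4 and 29.3 CPM in WT. Every K68R library was far above every WT library, and the 3 libraries of each genotype were nearly level. The means of 195 ± 2.63 and 29.4 ± 0.0760 CPM (SD, n = 3) differed 6.63-fold, which is 2.73 on the log2 scale (SE 0.0313, adjusted p = 3.03e-67, edgeR). Its transcript is of low GC content (42.1%) and has 2654 exonic bases. For a gene of that kind the surface alone gave -0.36, so that with offsets the log2 fold change was larger, 3.11 ± 0.0305 (SE). Without offsets 94.4% of all tested genes had a lower log2 fold change than Pmaip1, and with them 99.1%. In bulk samples such as these, a change in the RNA per cell and a change in the share of cells that express a gene cannot be told apart.

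Bbc3 encodes PUMA, a BH3-only protein that binds all the main protective BCL2 relatives, and lies on chromosome 7 at 16042307 to 16052130, plus strand. The K68R libraries held 21.8, 21.0 and 23.0 CPM and the WT libraries 8.03, 8.63 and 8.03. The genotypes did not overlap, and per kilobase of exon Bbc3 had the lowest WT level of the members. The 2.66-fold difference (log2 1.42, SE 0.0704, adjusted p = 5.58e-29, edgeR) was close to that of Tnfrsf10b. But the Bbc3 transcript has 65.2% GC, the highest of the members, in 3008 exonic bases, and the surface alone gave 1.92 for it. With offsets Bbc3 was called lower, at -0.49 ± 0.0715 (log2, SE). With offsets for length alone Bbc3 stayed higher, at 1.25 (log2). The direction of Bbc3 thus depended on whether GC content was taken into account together with exon length.

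Bax, on chromosome 7 at 45111124 to 45116332, minus strand, encodes the effector that opens the mitochondrial outer membrane. CPM values were 246.9, 231.0 and 228.9 in K68R against 344.7, 355.6 and 339.3 in WT. All 3 K68R libraries were below all 3 WT libraries. Bax fell by 0.56 on the log2 scale (SE 0.0233, adjusted p = 9.30e-29, edgeR), with means of 236 ± 9.84 and 347 ± 8.32 CPM (SD, n = 3), a 1.47-fold difference. With offsets the change was -0.78 ± 0.0284 (log2, SE). Its exonic length of 958 bases is the shortest and its GC content of 63.5% the second highest of the members, and with offsets for length alone it was -0.17. Against the bound of 1.5-fold Bax was not called.

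Perp, on chromosome 10 at 18720819 to 18732821, plus strand, encodes a tetraspan membrane protein that was found as a p53 effector in dying fibroblasts and is also a part of desmosomes. CPM values were 88.8, 94.4 and 92.1 in K68R against 14.9, 14.6 and 13.8 in WT. The lowest K68R library was several times above the highest WT library. The difference was 6.36-fold (log2 2.67, SE 0.0431, adjusted p = 5.00e-58, edgeR), and 3.03 ± 0.0419 (log2, SE) with offsets, above 99.0% of the genes so tested. Of 9 tested desmosome genes 5 were called higher and 2 lower (edgeR; median log2 1.07, and 0.52 with offsets). Jup, the plaque protein plakoglobin, rose 10.7-fold, and Dsp, desmoplakin, 14.9-fold. Pkp2 and Pkp4, which encode plakophilins, rose 2.86-fold and 2.18-fold. With offsets these 4 stayed higher, by 1.15, 2.74, 1.64 and 0.52 (log2). Dsg2 was also called higher, at 1.07 (log2) without and 1.05 with offsets. Called lower were Pkp1, at -1.30 and -2.04, and Dsc2, at -0.56 and -0.25 (not called with offsets). The means of Dsg2 and Pkp1 were under 1 CPM in both genotypes. Among desmosomal cadherin genes of the epidermis, Dsg1a and Dsg3 had 0 counts in K68R and at most 7 in a WT library, and Dsc3 had 9, 21 and 13 counts in K68R against 15, 22 and 16 in WT and was not called. The keratin gene Krt14 went the opposite way, to 0.180 ± 0.159 CPM from 6.32 ± 0.157 in WT (SD, n = 3). Trp63, the p53 relative of epithelia, was at 13, 13 and 21 counts in K68R and 5, 7 and 3 counts in WT, called higher at levels under 1 CPM (edgeR; log2 1.89, and 1.92 with offsets). The part of epithelial cells in the Perp difference was not tested.

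**Figure D2:**
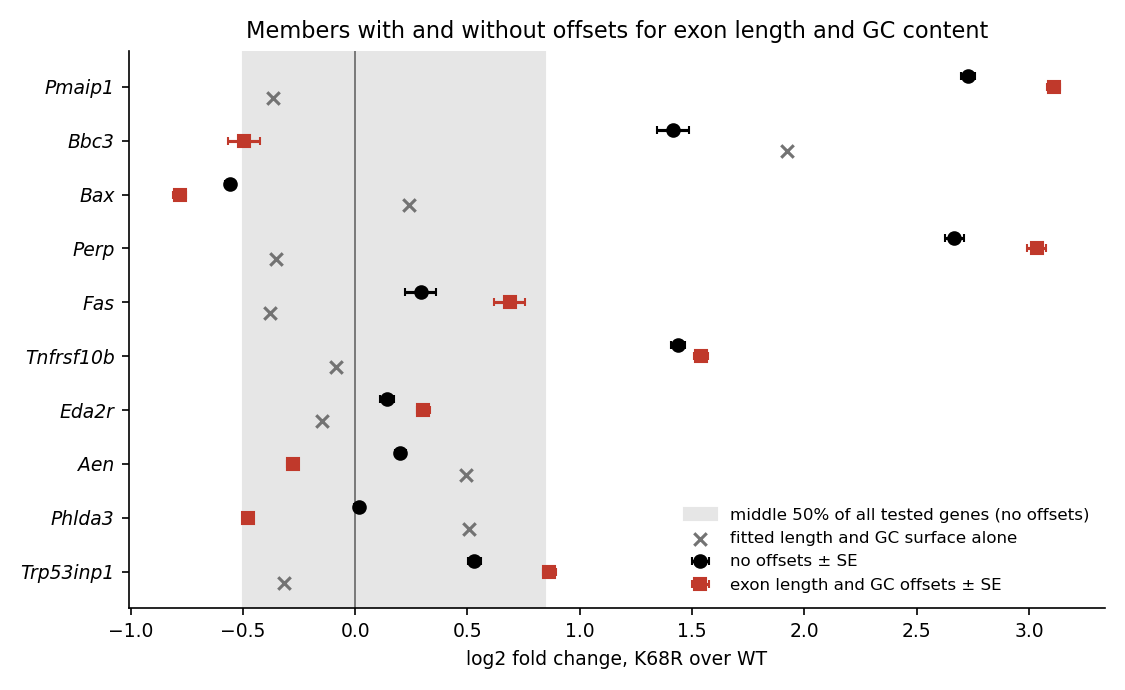
Log2 fold change of K68R over WT for each member without offsets (black circles, ± SE), with length and GC offsets (red squares, ± SE) and as given by the fitted surface alone (grey crosses); the grey band is the middle 50% of all tested genes, from -0.50 to 0.85. Pmaip1, Perp and Tnfrsf10b lie right of the band both ways, while Bbc3 moves from 1.42 to -0.49.

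Among the receptors, Tnfrsf10b carried the large change. It encodes the mouse death receptor for TRAIL and lies on chromosome 14 at 70004921 to 70021860, plus strand. The K68R libraries held 128.2, 124.4 and 124.8 CPM and the WT libraries 46.5, 46.7 and 46.2. The genotypes were separated by more than the whole WT level, with little spread inside either. The 2.71-fold difference (log2 1.44, SE 0.0317, adjusted p = 9.60e-50, edgeR) was 1.54 ± 0.0312 (log2, SE) with offsets, and the surface gave -0.09, so length and GC content moved Tnfrsf10b least among the members.

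Fas, on chromosome 19 at 34267926 to 34305175, plus strand, encodes the receptor for FAS ligand. CPM values were 14.6, 17.3 and 15.8 in K68R against 12.9, 13.46 and 12.7 in WT. The genotypes came close without overlapping, and Fas had the widest relative spread of the members, 8.64% of the mean in K68R. The 1.22-fold difference passed the test (log2 0.29, SE 0.0699, adjusted p = 1.34e-04, edgeR) and was 0.69 ± 0.0694 (log2, SE) with offsets. At 376 to 540 counts per library it was also a thinly counted member.

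Eda2r, on the X chromosome at 96375936 to 96420786, minus strand, encodes XEDAR, the receptor for the A2 form of ectodysplasin. CPM values were 103.8, 107.6 and 111.1 in K68R against 95.3, 98.9 and 98.7 in WT. The groups were adjacent, with the lowest K68R library just above the highest WT library. The difference was 1.10-fold (log2 0.14, SE 0.0294, adjusted p = 1.43e-05, edgeR), and 0.30 with length and GC offsets, but -0.59 with offsets for length alone, since its 7301 exonic bases are the most of any member. Sex-linked genes moved beside it. Xist was 1.29-fold higher (log2 0.03, not called, with length and GC offsets) and 4 Y-linked genes were 1.35-fold to 1.90-fold lower in K68R. Every library held transcripts of both kinds. Xist was at 173.2 to 178.0 CPM in K68R and 133.8 to 139.1 in WT. The Y-linked Ddx3y was at 47.8 to 54.4 CPM in K68R and 74.9 to 78.7 in WT. The part of the sex of the embryos in the Eda2r difference was not tested.

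The ligands and partners of these receptors were read from a list of 18 genes, of which 12 were tested, 6 called higher, 3 lower and 3 not called (edgeR; median log2 0.13, and -0.03 with offsets). Fasl, the FAS ligand, had 1 count in a single library of each genotype and none in the others. Tnfsf10, which encodes TRAIL, had no count in K68R and 4, 1 and 2 counts in WT, so both ligands were at or about the floor. Tnfrsf23 and Tnfrsf22, decoy receptors for TRAIL in the mouse, were 1.73-fold and 1.42-fold higher, and with length and GC offsets 0.88 and 0.38 (log2), though Tnfrsf22 was -0.07 with length offsets. Eda, which encodes ectodysplasin, rose 2.32-fold from 3.60 ± 0.437 to 8.37 ± 0.370 CPM (SD, n = 3), and the gene counts do not separate its A1 and A2 forms. Casp8 encodes the caspase that the death receptors for FAS ligand and TRAIL activate. Casp8 fell by 0.55 on the log2 scale (adjusted p = 8.57e-19, edgeR), from 45.0 ± 0.187 to 30.8 ± 1.15 CPM (SD, n = 3). With length and GC offsets it fell by 0.28.

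The other 3 members are Aen, Phlda3 and Trp53inp1. Aen, on chromosome 7 at 78545675 to 78560957, plus strand, encodes a nuclease that p53 induces and that helps to digest DNA in dying cells. CPM values were 173.6, 169.4 and 166.6 in K68R against 146.8, 149.9 and 146.2 in WT. The groups were separate but the step was small, 1.15-fold (log2 0.20, SE 0.0245, adjusted p = 2.27e-11, edgeR). With length and GC offsets Aen was called lower, at -0.28 ± 0.0238 (log2, SE), and with length offsets it was -0.30.

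Phlda3, on chromosome 1 at 135693823 to 135696872, plus strand, encodes a small pleckstrin-homology protein that competes with AKT for membrane lipids. The K68R libraries held 304.6, 300.03 and 291.5 CPM and the WT libraries 301.5, 292.5 and 292.0. The 2 ranges overlapped and the difference did not pass the test (log2 0.02, SE 0.0214, adjusted p = 0.504, edgeR), while with length and GC offsets, at 62.6% GC, it was called lower at -0.48. With offsets for length alone Phlda3 was called higher, at 0.24 (log2). Of 8 genes of its family and of AKT signalling, 7 were called higher and none lower without offsets (edgeR; median log2 0.93), and 5 higher and 2 lower with them (median 0.21). Phlda1, a relative of Phlda3, rose 3.49-fold and by 1.40 (log2) with offsets. Akt1 and Phlpp1, a phosphatase that acts on AKT, rose 2.73-fold and 9.39-fold, and with offsets by 0.18 and 1.64 (log2). Akt2 was 1.30-fold higher without offsets and -1.43 (log2) with them.

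Trp53inp1, on chromosome 4 at 11156441 to 11174379, plus strand, encodes a stress protein that takes part in p53 responses and autophagy. The K68R libraries held 116.9, 124.6 and 123.9 CPM and the WT libraries 83.1, 83.8 and 86.5. All K68R libraries were above all WT libraries, by 1.44-fold in the means (log2 0.53, SE 0.0295, adjusted p = 2.55e-26, edgeR). With 38.8% GC, the lowest of the members, its value with length and GC offsets was larger, 0.86, whereas with length offsets it was -0.01. Of 11 autophagy genes 5 were called higher and 5 lower (edgeR; median log2 -0.03, and 0.19 with offsets). Trp53inp2, its closest relative, rose 2.49-fold and by 0.52 (log2) with offsets, and Ulk1, the kinase that starts autophagy, 9.19-fold and by 0.97. Gabarap, which encodes a ubiquitin-like protein of autophagosomes, was at -0.27 (log2) without and 0.19 with offsets, and Sqstm1, the cargo receptor p62, at 0.23 and -0.87.

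Compared per length, the members spanned 2 orders of magnitude in WT, from Bax at 362 ± 8.68 CPM per kilobase of exon to Bbc3 at 2.74 ± 0.117 (SD, n = 3). The WT order was Bax, Phlda3, Aen, Trp53inp1, Tnfrsf10b, Eda2r, Pmaip1, Perp, Fas and Bbc3, with no overlap between neighbours. In K68R it was Bax, Phlda3, Pmaip1, Perp, Tnfrsf10b, Aen, Trp53inp1, Eda2r, Bbc3 and Fas, and only the last pair, Bbc3 and Fas, overlapped. Pmaip1 went from rank 7 to rank 3, at 11.1 ± 0.0286 against 73.4 ± 0.990 CPM per kilobase, and Perp from rank 8 to rank 4. These levels per kilobase use the annotated exonic lengths and are not corrected for GC content.

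**Figure D3:**
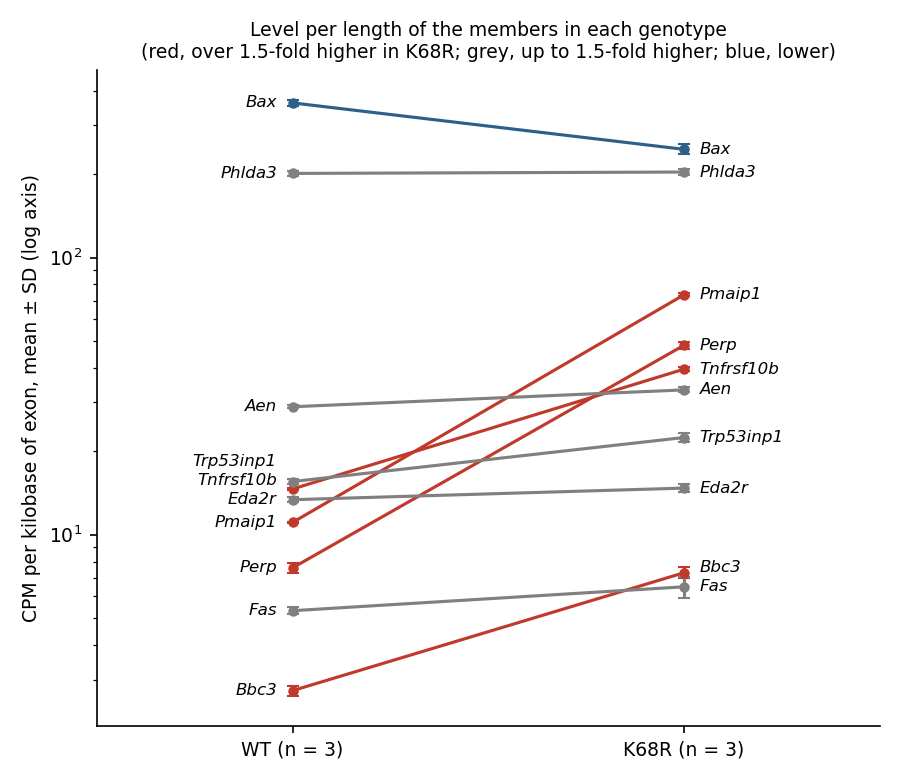
Mean level of each member in CPM per kilobase of exon ± SD (n = 3 libraries) in WT and K68R on a log axis, with lines joining the same gene. Pmaip1 and Perp pass Tnfrsf10b, Aen, Trp53inp1 and Eda2r between the genotypes, while Bax falls from 362 to 246.

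What the BH3-only proteins and BAX do depends on their BCL2 relatives, of which 11 of 15 were tested, with 6 called higher, 4 lower and 1 not called (edgeR; median log2 0.28). With offsets 1 was higher and 7 lower (median -0.19). Bcl2, Bcl2l1 and Mcl1 encode the protective proteins. Bcl2 rose from 15.3 ± 0.558 to 22.7 ± 1.40 CPM (SD, n = 3), by 0.56 (log2) and by 0.43 with length and GC offsets, but was -0.17 with length offsets. Mcl1 was at 214 ± 4.01 against 171 ± 1.82 CPM, 0.32 (log2) without and -0.18 with length and GC offsets. Bcl2l1 was at 172 ± 3.46 against 157 ± 0.823 CPM, 0.14 without and -1.32 with them. Among effectors, Bok fell by 1.07 (log2), 2.11-fold, and by 1.46 with offsets, and Bak1, the partner of Bax in opening the membrane, was 1.21-fold higher and 0.04 (log2, not called) with offsets.

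Ratios within a library do not depend on library scaling. The ratio of Bax to Bcl2 per exonic base was 87.3, 73.0 and 79.8 in K68R and 166, 184 and 171 in WT, lower in all K68R libraries. Pmaip1 to Mcl1 was 2.92, 2.98 and 3.08 in K68R and 0.563, 0.571 and 0.557 in WT. The level of such a ratio depends on the annotated exonic lengths, 2654 bases for Pmaip1 and 8725 for Mcl1. It is also not corrected for GC content, so which of the 2 transcripts was more abundant is not shown. Only the change of a ratio between the genotypes is read here. Bbc3 to Bcl2l1 was 0.217, 0.202 and 0.229 against 0.0871, 0.0929 and 0.0872. The log2 differences of K68R from WT were -1.12, 2.41 and 1.28, and -1.21, 3.29 and 0.83 with length and GC offsets. Offsets for length alone were not applied to the ratios. With them the genes Bax and Bcl2 were both at -0.17 (log2), that is, they changed alike. The fall of their ratio was thus seen only without offsets and with length and GC offsets. With length offsets Pmaip1 and Mcl1 were at 2.64 and -0.50, and Bbc3 and Bcl2l1 at 1.25 and -0.37. For each of the 3 ratios a two-sided exact permutation test gave p = 0.1 (adjusted over the 3 ratios, 0.1), the smallest that 3 against 3 libraries allow.

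**Figure D4:**
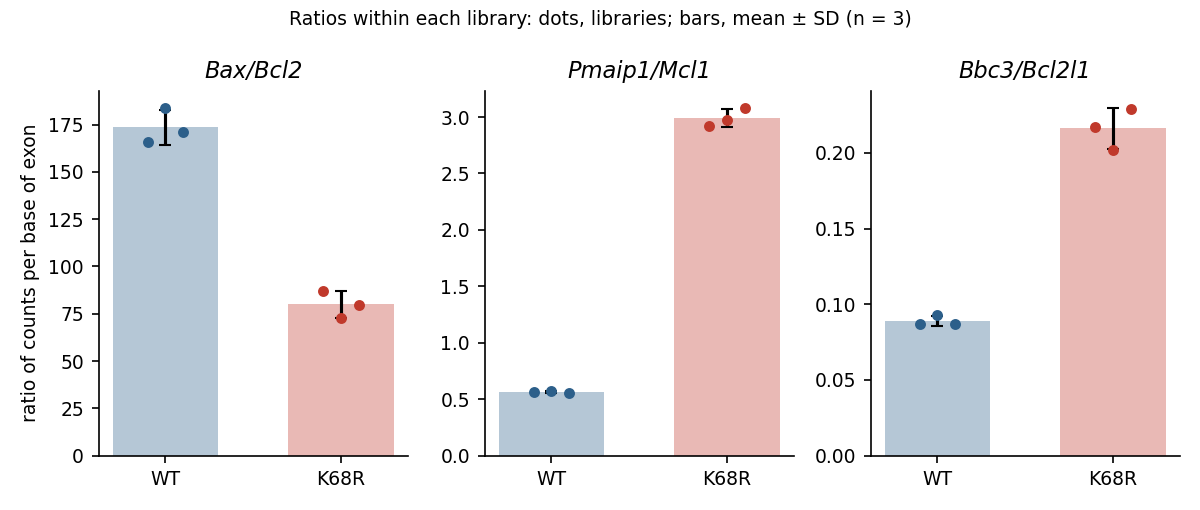
Ratio of counts per exonic base of Bax to Bcl2, Pmaip1 to Mcl1 and Bbc3 to Bcl2l1 in each library, with bars for mean ± SD (n = 3) on axes from 0. The Bax ratio is lower in all K68R libraries (mean 80.0 against 174) and the other 2 are higher.

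Further down the mitochondrial route, 17 of 17 genes were tested, 5 called higher, 11 lower and 1 not called (edgeR; median log2 -0.40, and -0.47 with offsets). Cycs, cytochrome c, was 1.80-fold lower, and Diablo and Htra2, which relieve the block on caspases, were 1.86-fold and 1.63-fold lower. With offsets the 3 were -0.47, -1.17 and -1.09 (log2). The list pools genes that promote death with genes of the inhibitor of apoptosis family, so its counts and median have no single direction for death. Of that family, Xiap, Birc2 and Birc3 were lower too, at -0.35, -0.44 and -0.76 (log2). With offsets they were at -0.87, -0.20 and -0.62. Birc5, survivin, which is of the same family and also a mitotic gene, fell 3.52-fold from 118 ± 2.83 to 33.5 ± 0.879 CPM (SD, n = 3). Apaf1, the scaffold that activates caspase-9 and a p53 target, was 1.15-fold higher, with 0.14 (log2) under length and GC offsets but -0.48 under length offsets.

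Outside cell death, the list of 27 other p53 targets and regulators had 26 tested genes, with 18 called higher, 6 lower and 2 not called (edgeR), a median log2 fold change of 0.29, and 0.37 with offsets. With offsets 16 were higher and 5 lower. Trp53 itself was at 163 ± 5.83 CPM in K68R against 173 ± 4.48 in WT (SD, n = 3), a log2 fold change of -0.08 (adjusted p = 0.0022, edgeR) that was not called with offsets or without K68R replicate 2, where it was -0.05. Cdkn1a, the cell cycle inhibitor p21, rose 1.48-fold, from 633 ± 6.12 to 934 ± 7.81 CPM, and by 0.61 (log2) with offsets. Mdm2 was 1.30-fold higher and 0.25 (log2) with length and GC offsets, and -0.36 with length offsets. The larger changes were Epha2, an ephrin receptor, 5.77-fold higher, and Sesn2, a sestrin that restrains mTORC1 and is also an ATF4 target, 3.86-fold higher, with 1.13 and 1.10 (log2) under offsets. Rps27l, a ribosomal protein gene induced by p53, fell by 0.69 (log2) and by 0.31 with offsets. Trp73, the other p53 relative, had at most 2 counts in any library.

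Pmaip1, Bbc3 and Tnfrsf10b are also targets of ATF4 or CHOP, and the stress genes under these factors were read from a list of 16, all tested, of which 6 were called higher and 10 lower (edgeR; median log2 -0.44, and -0.37 with offsets). Atf4 transcripts fell by 1.07 (log2), 2.10-fold, and Asns, the asparagine synthetase that ATF4 induces, by 1.06, 2.09-fold, and with offsets by 0.98 and 0.91. Ddit3, which encodes CHOP and was chosen after its values were seen, measured 75.1 ± 1.36 CPM in K68R, 1.05-fold above the 71.4 ± 0.748 of WT (SD, n = 3; adjusted p = 0.0295, edgeR), and 0.44 (log2) with offsets. Cebpb, which encodes a partner of CHOP, rose 2.04-fold and was -0.06 (log2, not called) with offsets. The list was mixed, with 5 genes called higher and 9 lower under offsets. Sesn2, Ppp1r15a and Atf3 were higher both ways, at 1.95, 1.03 and 0.53 (log2) without offsets and 1.10, 0.80 and 0.76 with them.

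**Figure D5:**
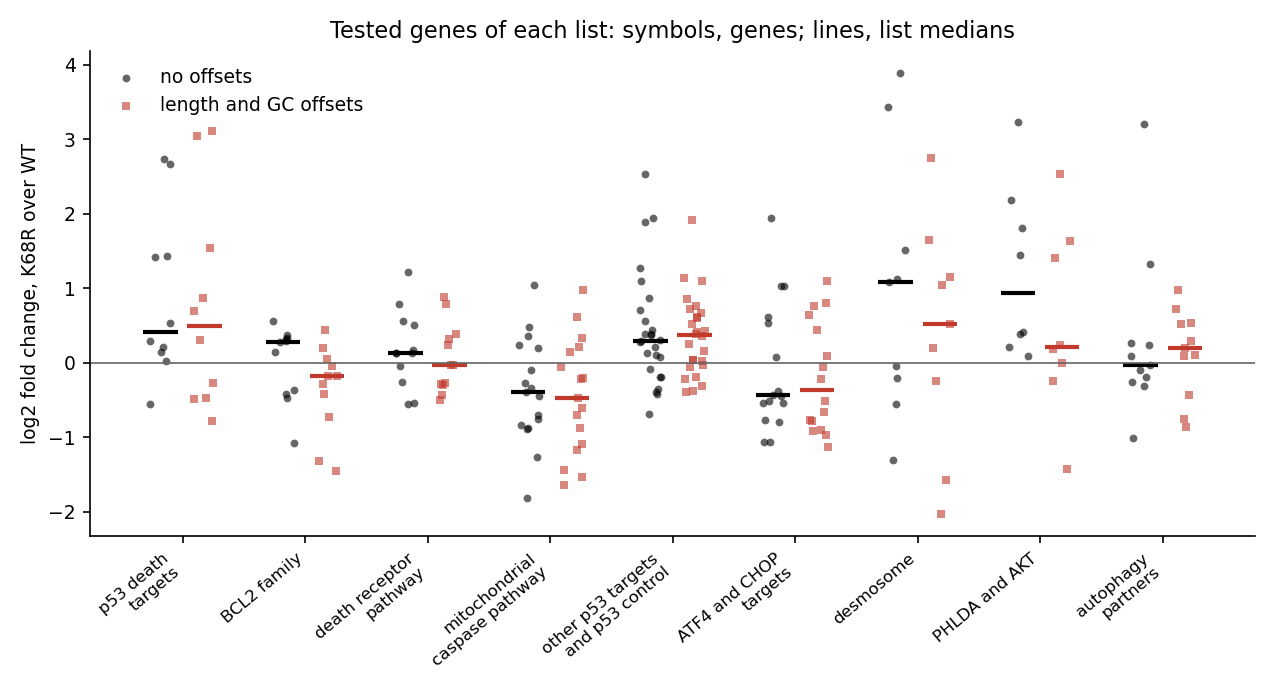
Log2 fold change of K68R over WT for the tested genes of each list without offsets (black circles) and with length and GC offsets (red squares), with lines at list medians. The p53 death targets have medians of 0.41 and 0.50, the mitochondrial caspase list and the ATF4 and CHOP list have medians below 0 both ways, and the medians of the BCL2 family, the death receptor list and the autophagy list change sign.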

How the data were processed

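Poly(A) RNA of 6 libraries was sequenced with a stranded kit, per the labels' protocols, from RNA with an integrity number above 4. Per the file headers, the deposited values are raw counts: featureCounts 2.0.6 assigned read pairs to the exons of each RefSeq gene, with no option set for strand or multi-mapped reads. The build was mm39, per the submitters' processing notes. HISAT2 2.2.1, SAMtools and bcl2fastq are named in the submitters' processing notes, and other steps are not given in the sources used here. No exonic base of a member is shared with another annotated gene. The genotype of each library was read from its title.

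The test was run in edgeR 4.0.16 under R 4.3.3 (filterByExpr, TMM, robust quasi-likelihood F test, genotype as the only term), fitted on all 16730 genes that passed the filter, with Benjamini-Hochberg adjustment over all of them and calls at an adjusted p under 0.05. CPM used TMM-normalised library sizes, and log2 CPM a prior count of 2. Between libraries of the same genotype the chi-square per gene was 1.85 to 2.24, above counting error alone. No library was thus a copy of another, and all were kept. Between genotypes the chi-square per gene was 297 to 375. The spread that edgeR fitted between libraries of a genotype, beyond counting error, was 2.19%. Such a small spread may be technical. For the offsets, exon length (log2) and GC content were entered together in a smooth surface fitted to each library's deviation from the gene's mean log2 CPM with mgcv 1.9.3. GC content is that of the longest GENCODE M21 transcript of a symbol (36310 matched directly, 595 by an older symbol), and 93.6% of tested genes had a value. In simulated data of 15811 genes, 100 of 100 genes changed 2-fold and 91 of 100 changed 1.5-fold were recovered, with 8 false calls. Only these genes were changed there, all genes shared a common dispersion, and no length or GC effect was added. In the real comparison most genes were called, so these rates do not apply to the calls made here.

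The alternatives were DESeq2 1.42.0, limma-voom (limma 3.58.1), other normalizations and filters, a 1.5-fold bound, both kinds of offsets, a replicate block and leaving out each library. The floor of detection covers counting error alone, because PCR copies cannot be recognised in these reads. The members and gene lists were chosen with earlier results of these data known. The genes named were the members, up to 4 called genes of each pathway list with the smallest p, 13 fixed genes, of which 1 is not reported here, and the checks Sod2, Xist and 4 Y-linked genes. Other genes, among them Krt14, Dsg1a, Dsg2, Dsg3, Dsc2, Dsc3, Pkp1, Ddit3, Ppp1r15a, Atf3, Xiap, Birc2, Birc3 and the single markers, were chosen after their values were seen.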

Additional observations from a re-analysis of the deposited data

How the results depend on the processing

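Pmaip1, Perp and Tnfrsf10b kept their direction and their call under all 16 alternatives, with log2 fold changes of 2.61 to 3.11, 2.55 to 3.03 and 1.24 to 1.54, and adjusted p up to 3.63e-30, 3.89e-26 and 7.45e-25 (edgeR, DESeq2 or limma-voom). No call on a member changed with DESeq2 size factors, DESeq2, limma-voom, either filter or any library left out. Replicate numbers did not pair the libraries (correlations of equally numbered libraries of -0.00947, 0.0135 and 0.0130), and with a replicate block 13567 genes were called, 6804 higher and 6763 lower, with the same 8 members higher and 1 lower. The ratios with a replicate block kept log2 differences of -1.12, 2.41 and 1.28 at p = 0.25, the smallest that exact sign permutation of 3 pairs allows. Leaving out 1 library gave -1.18 to -1.06, 2.39 to 2.43 and 1.24 to 1.33.

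Against 1.5-fold 6855 genes were called, 4365 higher and 2490 lower, with 4 members higher, 0 lower and 6 not called. Upper quartile normalization moved the median of all genes from -0.01 to -0.12 (log2). It gave 2 members lower, with Phlda3 at -0.10, and Eda2r (0.03) and Bcl2l1 lost their call. With length and GC offsets 4 members were lower and 0 not called, and these reversed: Bbc3 to -0.49, Aen -0.28, Phlda3 -0.48, Mcl1 -0.18, Bcl2l1 -1.32, Cebpb -0.060, Gabarap 0.19, Sqstm1 -0.87 and Akt2 -1.43 (log2). With length offsets, whose median over all genes was -0.21, 3 members were lower, and these reversed: Aen to -0.30, Eda2r -0.59, Trp53inp1 -0.013, Mdm2 -0.36, Mcl1 -0.50, Bcl2 -0.17, Bcl2l1 -0.37, Tnfrsf22 -0.067, Apaf1 -0.48, Gabarap 0.074, Sqstm1 -0.34 and Akt2 -0.34, while Phlda3 was called higher at 0.24. The surface is fitted across genes and removes any change that goes with length or GC content, technical or not, and the cause was not tested.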

Other observations

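Transcripts of the 10 members together made up 1374 to 1391 CPM in the K68R libraries and 1073 to 1093 CPM in the WT libraries. The genes whose centred log2 CPM over the 6 libraries lay nearest to that of Pmaip1 were Ehmt2, a histone methyltransferase, Kif1c, a kinesin, and Vars1, the valyl-tRNA synthetase, at Euclidean distances of 0.0535, 0.0636 and 0.0679. Ehmt2 was 6.79-fold and Kif1c 6.77-fold higher in K68R. With length and GC offsets Ehmt2 was at 0.18 and Kif1c at 1.20 (log2), where Pmaip1 was at 3.11. The Ehmt2 transcript has 60.8% GC and the Pmaip1 transcript 42.1%. Sfn, which encodes 14-3-3 sigma and is both a p53 target and an epithelial gene, was chosen after its values were seen and stood at 19.5 ± 1.09 CPM in K68R against 5.11 ± 0.348 in WT (SD, n = 3), a log2 fold change of 1.93, and of 1.87 with offsets.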
